A study of Danio rerio with 49 samples.

Results

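Zebrafish embryos of 2 genotypes, wildtype and MZrlig1, were compared at the bud stage. The comparison used 6 of the 49 libraries of the series, replicates a, b and c of each genotype, chosen by genotype and stage alone. Each library was made from poly(A)-enriched RNA of 8 pooled whole embryos that had developed in darkness. MZrlig1 marks maternal-zygotic mutants, which have no working rlig1 from the egg or from their own genome. The labels name no further allele or agent in either genotype. The strain, the mutant allele and the number of founder families are not given in the sources used here, so effects of rlig1 and of other differences between the lines cannot be told apart. The rest of the series covers 5 other stages of whole embryos, and larval heads. The study set out to find what the loss of this ligase does to RNA levels in development.

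RLIG1 is an RNA ligase of vertebrates. It joins an RNA end that carries a phosphate to one that carries a hydroxyl group, and human cells without it tolerate oxidative stress poorly. The bud stage closes gastrulation in the zebrafish: the cell sheets have covered the yolk, a tail bud forms, and the neural plate, the notochord and the presomitic mesoderm lie in place before the first somite appears. At this time the hindbrain is being divided into segments by transcription factors, and caudal and Hox genes mark the posterior body.

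The total count per library lay between 14406173 and 17486578. Wildtype replicate b stood apart from the other 5 libraries. It correlated with its own group at Spearman's rho of 0.927 and 0.956 across genes, while wildtype replicates a and c correlated at 0.984 and the MZrlig1 replicates at 0.978 to 0.992. Its normalization factor (the trimmed mean of M values, TMM) was 0.859, against 0.996 to 1.058 in the others. It held counts for 20253 genes, against 20877 to 21794. The ribosomal protein genes summed to 102900 CPM (counts scaled to a common library size, with the TMM factors, here and below) in wildtype replicate b and to between 47460 and 62150 CPM in the others. Many results are therefore also given without this library, though not every change that its absence made.

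Markers of the stage were present in both genotypes. Of 14 marker names 12 matched a gene, and 0 of these 12 were called by the edgeR test described below, while 3 had an unadjusted p under 0.05 and 1, MYOD1, was called by DESeq2. The segmentation clock gene her7 measured 38.9 CPM on average in wildtype and 38.7 CPM in MZrlig1. The mesoderm gene tbxta measured 156 and 142 CPM, and msgn1, a gene of the presomitic mesoderm, 339 and 351 CPM. The hatching gland protease gene ctslb measured 16.7 and 15.6 CPM and the outer-layer keratin gene krt4 6229 and 6644 CPM. Of 21 genes matched to markers of larval organs, 9 passed the filter on low counts. Among these, FABP2 (a fatty acid binding protein) and tfa (transferrin) were high in both genotypes, at 360 and 354 CPM and at 1130 and 1095 CPM, and the neuronal gene ELAVL3 measured 15.0 and 29.4 CPM.

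The targeted gene, RLIG1 (ENSDARG00000045785), was counted in the 3 wildtype libraries and in 0 of the 3 MZrlig1 libraries. It measured 3.72, 3.37 and 3.41 CPM in wildtype replicates a, b and c. In MZrlig1 it was at least 55.5-fold lower, the bound being set by 3 counts over the group (edgeR adjusted p = 0.0125). Bounds cover counting error only. Among 26 genes of RNA end processing and ligation, RLIG1 was the 1 called. The others with the smallest p were ANGEL2, a phosphatase of RNA ends, at −0.40 on the log2 scale (adjusted p = 0.205), and ZBTB8OS, the archease cofactor of the tRNA ligase, at −0.82 (adjusted p = 0.254). Neither was called.

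Genotype was tested with the quasi-likelihood test of edgeR, and a gene is called where its adjusted p was under 0.05. Of 15846 genes tested, 129 were called, 0.814% of them. In MZrlig1 72 rose (0.454%) and 57 fell (0.36%). The libraries of the genotypes did not overlap for any of the 129 called genes, and they did not overlap for 21.5% of all genes tested. Calling genes in these same libraries favours such separation. It is no separate support for the calls, here or where it is given for called genes below. Among the called genes 69 rose and 52 fell by more than 2-fold, and the median log2 fold change was 2.60 for those that rose and −1.98 for those that fell, against 0.01 over all genes tested. Of the called genes 7 had no count in wildtype and 3 had none in MZrlig1. With replicate letters as a block, 264 genes were called, of which 126 were among the 129. Without wildtype replicate b it called 492, and all 129 were among them. Without wildtype replicate a it called 61 genes, and without c 4. Without MZrlig1 replicate b it called 7 genes, and without a or c it called 0, with 1136 and 1131 genes at an unadjusted p under 0.05. Each of the 129 genes kept its direction in every one of these fits, with an unadjusted p of at most 0.0036 whichever library was left out. The genes were selected by p in these same libraries, so this is no separate support for the calls. In pooled embryos a change in the number of cells that express a gene and a change in RNA per cell cannot be told apart. The labels do not say that the pools came from separate clutches, so p-values measure the spread between these pools.

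**Figure D1:**
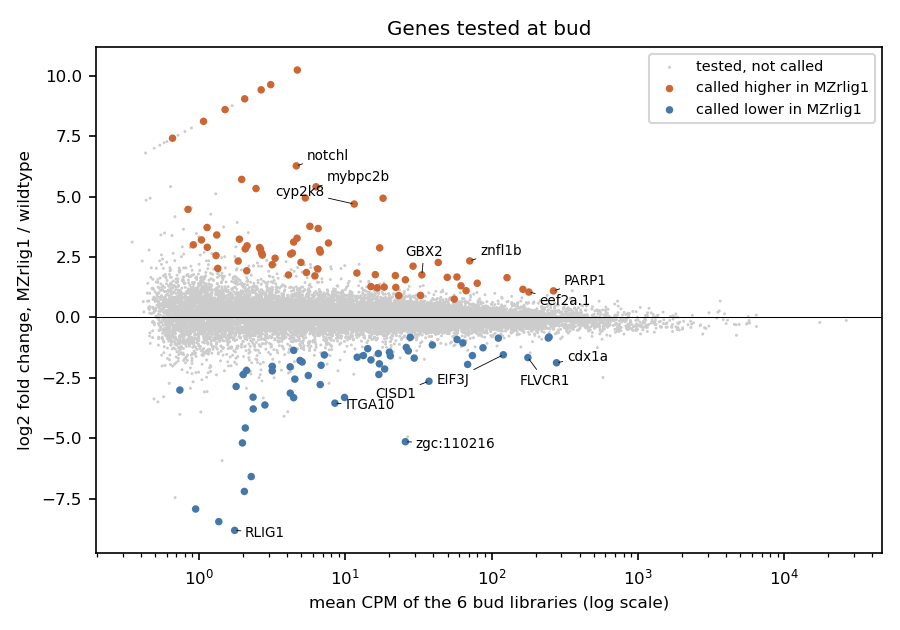
Each point is 1 of 15846 genes, placed by its mean level over the 6 bud libraries (CPM, log axis) and by its log2 fold change in MZrlig1 relative to wildtype, and the 129 called genes are coloured by direction. Of the called genes 36 were under 5 CPM even in the genotype with the higher mean, so that more than these lie under 5 CPM on this axis. A further 10 were above 100 CPM.

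Among transcription factors that pattern the body axis, the caudal gene fell and a pair of hindbrain genes rose. The caudal gene cdx1a, which acts in the posterior body and the tail bud, measured 441.1, 424.6 and 444.3 CPM in wildtype (replicates a, b and c, the order kept below) and 120.0, 117.0 and 119.1 CPM in MZrlig1. Replicates of each genotype lay close together, and the fall was −1.88 ± 0.11 (SE) on the log2 scale (adjusted p = 0.00459). The related gene cdx4 was not called, at −0.19. Of 31 genes of the presomitic mesoderm and segmentation clock, cdx1a was the 1 called, and the median log2 fold change of that list was −0.02. GBX2, a homeobox gene of the anterior hindbrain, measured 12.3, 20.3 and 13.1 CPM in wildtype and 50.6, 50.2 and 53.6 CPM in MZrlig1. It rose by 1.76 ± 0.22 on the log2 scale (adjusted p = 0.0246), while its relative GBX1 was not called (−0.31). EGR2, known as krox20, marks alternating hindbrain segments. Its level was 2.29, 1.48 and 1.31 CPM in wildtype and 7.69, 7.62 and 9.45 CPM in MZrlig1, a rise of 2.28 ± 0.28 (adjusted p = 0.0246).

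Of 29 neural plate genes, GBX2 and EGR2 were the 2 called, both higher, against 0.454% of all genes tested. The median log2 fold change of this list was −0.14, and 10 of the 29 values were above 0. Genes of the forebrain and midbrain had values below 0 and were not called: OTX1 at −0.37, OTX2 at −0.36, rx3 at −0.34 and the neural stem cell factor SOX2 at −0.52. For each of these 4 genes the libraries of the genotypes did not overlap, as for 21.5% of all genes. Without wildtype replicate b, OTX1 was called (−0.44, adjusted p = 0.0352), and the list's median was 0.02, with 15 of 29 above 0, 3 called higher and 1 lower. Of 34 Hox genes, 0 were called by edgeR and 0 by DESeq2, and 5 had an unadjusted p under 0.05. Of the Hox genes 25 had values above 0, at a median of 0.13. For 8 of them every MZrlig1 library was above every wildtype library, and for 0 every one was below, against 21.5% of all genes without overlap in either direction. Without wildtype replicate b the median was 0.45, with 30 of 34 values above 0, and 2 were called, hoxa2b (1.63, adjusted p = 0.0359) and hoxa9b (1.11, adjusted p = 0.0309). With all 6 libraries HOXA3 had the smallest p, with 8.53 CPM in wildtype and 13.2 CPM in MZrlig1 (log2 0.63, adjusted p = 0.234), followed by hoxb1a (0.41, adjusted p = 0.264).

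On the list of the presomitic mesoderm, genes that were not called included the HES6 copy with the smallest p, at 2.31 (adjusted p = 0.0694), and MYOD1, the muscle determination factor, at 0.72 (adjusted p = 0.114). DESeq2 called both. Without wildtype replicate b both were called as well (HES6 1.98, adjusted p = 0.0185; MYOD1 0.80, adjusted p = 0.0231), and with the replicate block HES6 was (2.36, adjusted p = 0.0455). The list's median without that library was 0.13, with 22 of 31 above 0. CYP26A1, also on this list, went the other way and was not called (−0.74, adjusted p = 0.188). With the replicate block it was called lower (−0.72, edgeR adjusted p = 0.0485). The gene mybpc2b, whose product binds myosin in thick filaments, measured 0.557, 0.281 and 0 CPM in wildtype and 11.8, 15.12 and 10.0 CPM in MZrlig1 (log2 5.41 ± 0.67, adjusted p = 0.0246). MYOM2, a protein of the sarcomere's M-band, measured 1.55, 1.05 and 0.197 CPM and then 11.4, 11.0 and 13.9 CPM (3.68 ± 0.56, adjusted p = 0.0430), a rise that limma did not call. Both genes were near 0 in wildtype and above every wildtype value in each MZrlig1 library. Their relatives MYBPC1 (−0.58) and the 2 genes named MYOM1 (−0.33 and 0.24) were not called. Of 11 sarcomere genes on the list, 0 were called by edgeR or DESeq2 and 0 had an unadjusted p under 0.05. The myosin light chain gene MYL1 measured 21.7, 3.44 and 2.82 CPM in wildtype and 3.22, 34.2 and 2.55 CPM in MZrlig1, so that 1 library of each genotype stood above the others.

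**Figure D2:**
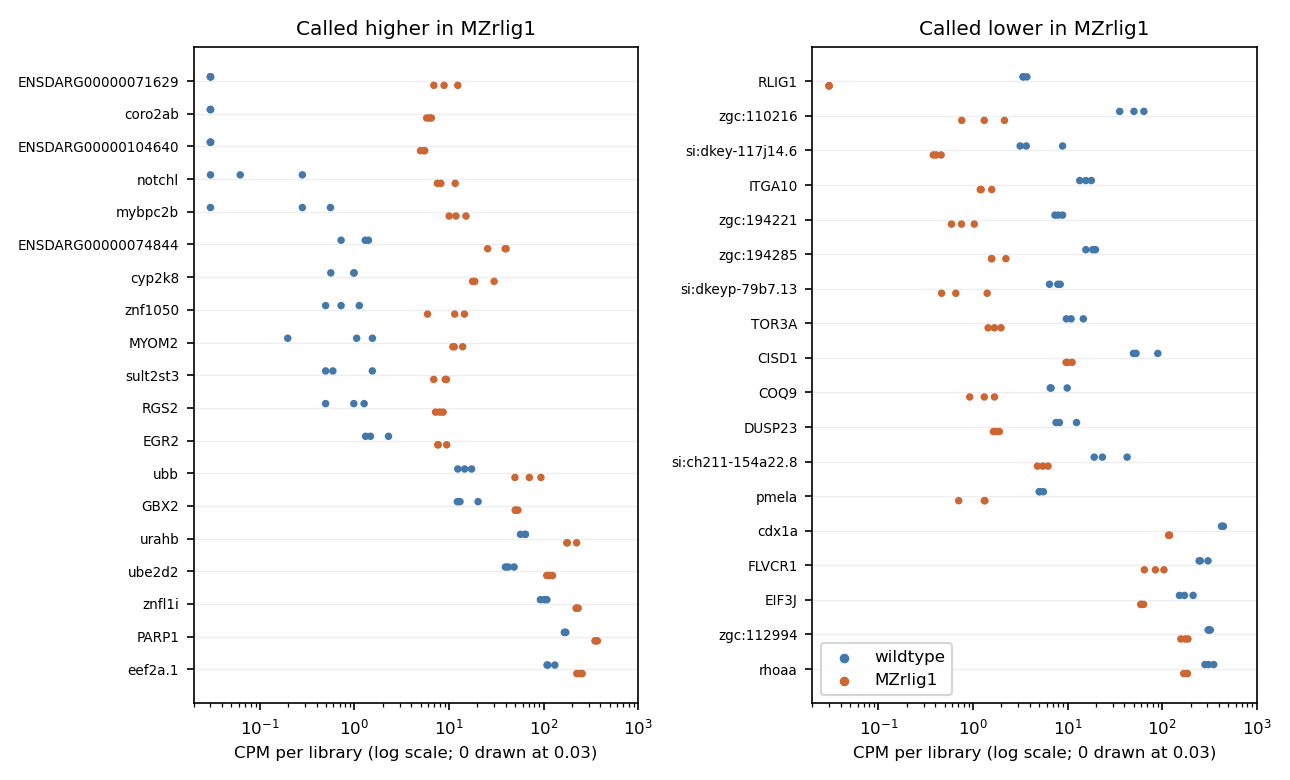
Levels of named genes in each of the 6 bud libraries (CPM, log axis, with 0 drawn at the left edge), for 19 genes that rose and 18 that fell in MZrlig1, in blue for wildtype and in orange for MZrlig1. For each gene shown the 3 points of one colour lay to one side of the 3 of the other, for example cdx1a between 117.0 and 120.0 CPM in MZrlig1 and between 424.6 and 444.3 CPM in wildtype. The genes were picked from those called in these libraries, none of which overlapped, so this separation follows from the choice.

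Of the ubiquitin and translation factor lists, 3 genes rose and 1 fell. The polyubiquitin gene ubb, which encodes ubiquitin repeats, measured 12.4, 17.4 and 14.6 CPM in wildtype and 70.8, 93.8 and 49.8 CPM in MZrlig1 (2.27 ± 0.26, adjusted p = 0.0189). The ubiquitin-conjugating enzyme gene ube2d2 rose from 42.3, 39.5 and 48.8 CPM to 114.8, 124.6 and 108.2 CPM (1.41 ± 0.14, adjusted p = 0.0118). These were the 2 called of 51 genes on the ubiquitin list, whose median was −0.12, and 0.454% of all genes were called higher. Without wildtype replicate b the median was 0.02, with 3 genes called higher and 2 lower. Among other ubiquitin genes, ubc (−0.30) and rps27a (−0.46) were not called. UBB was not called at 0.87 (adjusted p = 0.180), but was called without wildtype replicate b (1.13, adjusted p = 0.00689), with the replicate block (0.90, adjusted p = 0.0440) and by DESeq2 (adjusted p = 0.0412). The translation elongation factor gene eef2a.1 measured 131.7, 108.9 and 111.1 CPM in wildtype and 256.3, 224.9 and 245.9 CPM in MZrlig1 (1.05 ± 0.13, adjusted p = 0.0246). Of its relatives, eef2b was not called, at 0.03. The copy eef2a.2 measured 16.7, 6.26 and 12.7 CPM in wildtype and 3.42, 0.756 and 5.16 CPM in MZrlig1, a value of −1.93 that was not called (adjusted p = 0.288) and was called with the replicate block (−2.11, adjusted p = 0.0440). EIF3J (ENSDARG00000012603), a subunit of an initiation factor, fell from 152.6, 212.7 and 172.4 CPM to 60.5, 63.8 and 59.4 CPM (−1.55 ± 0.15, adjusted p = 0.0121), and the second gene of that name was at −0.06. In each of the 4 called genes the genotypes did not overlap. They were the 1 higher and 1 lower of 79 translation factors and the 2 ubiquitin genes, and near-identical copies can share reads, so the split between copies is uncertain.

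PARP1, which senses breaks in DNA and makes poly(ADP-ribose), measured 172.0, 166.2 and 167.7 CPM in wildtype and 360.7, 349.8 and 371.1 CPM in MZrlig1. The rise was 1.1 ± 0.11 (adjusted p = 0.0121), with replicates of each genotype within a narrow range. It was the 1 called of 24 genes of the interferon, antiviral and PARP list. Its relative parp9 was not called, at 1.18 (adjusted p = 0.119), and was called without wildtype replicate b (1.41).

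The znfl1 genes are a multigene family of zinc finger proteins in the zebrafish. All 8 genes matched by name were tested and 2 were called, both higher, against 0.454% of all genes tested. The family was chosen after its values were seen, beside a called gene, so this share is no support for a change of the family. Of all genes tested, znfl1b had the smallest p, 2.14e-07 (adjusted p = 0.00339). It measured 23.8, 24.2 and 22.2 CPM in wildtype and 112, 121 and 122 CPM in MZrlig1, a rise of 2.34 ± 0.12. The copy znfl1i rose from 92.7, 108.5 and 102.3 CPM to 220.9, 224.8 and 232.7 CPM (1.16 ± 0.12, adjusted p = 0.0121). The copies did not move as one. Of the other copies znfl1k had a value of −0.91 (adjusted p = 0.0678) and the rest had values above 0, none of them called. The family summed to 1356, 1422 and 1422 CPM in wildtype and to 1446, 1608 and 1742 CPM in MZrlig1, without overlap. Reads can be shared between the copies.

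The cytochrome P450 gene cyp2k8 measured 0.991, 0.562 and 0.985 CPM in wildtype and 18.7, 30.0 and 17.8 CPM in MZrlig1 (4.69 ± 0.34, adjusted p = 0.00573). The gene urahb, of the pathway that breaks down uric acid, rose from 64.2, 64.0 and 57.1 CPM to 176.5, 223.9 and 178.6 CPM (1.64 ± 0.14, adjusted p = 0.0106). The sulfotransferase gene sult2st3 rose by 3.28 ± 0.45 (adjusted p = 0.0328). In all 3 genes the highest wildtype library lay below the lowest MZrlig1 library. MAT1A, which makes the methyl donor S-adenosylmethionine, measured 4.95, 6.33 and 4.46 CPM in wildtype and 20.2, 18.3 and 17.7 CPM in MZrlig1 (1.83 ± 0.20, adjusted p = 0.0137). The hexokinase gene HK1, named after its values were seen, measured 42.9, 42.3 and 42.1 CPM and then 88.3, 84.9 and 100.8 CPM (1.1 ± 0.12, adjusted p = 0.0165), and it was not called in the fit of all stages. HK2 and HKDC1, related hexokinase genes, were not called.

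CISD1, an iron-sulphur protein of the mitochondrial outer membrane, measured 53.02, 90.1 and 49.8 CPM in wildtype and 9.99, 9.65 and 11.2 CPM in MZrlig1 (−2.64 ± 0.26, adjusted p = 0.0121). COQ9, needed to make coenzyme Q, fell from 6.57, 9.91 and 6.70 CPM to 1.31, 1.69 and 0.923 CPM (−2.56 ± 0.32, adjusted p = 0.0246). FLVCR1, a transporter of choline and haem, measured 246.7, 306.1 and 254.1 CPM and then 64.9, 84.9 and 104.6 CPM (−1.66 ± 0.20, adjusted p = 0.0221). The glutathione transferase gene MGST2, named after its values were seen, fell from 96.3, 120.8 and 109.5 CPM to 26.4, 30.6 and 27.6 CPM (−1.95 ± 0.14, adjusted p = 0.00573). For each of the 4 genes every MZrlig1 library was below every wildtype library. Wildtype replicate b was the highest library for all 4, and they fell without it too. Relatives were not called: CISD2 at −0.47, the 2 genes named FLVCR2 at 0.37 and 1.16, and the 2 named MGST1 at 0.03 and −0.06. Of 84 nuclear genes of the respiratory chain 0 were called by edgeR, 2 had an unadjusted p under 0.05 and 1, atp5mc1, was called by DESeq2. Without wildtype replicate b edgeR called atp5mc1 (−0.81, adjusted p = 0.0333) and NDUFA1 (0.88, adjusted p = 0.0305). With the replicate block it called atp5mc1 (−1.10, adjusted p = 0.0282).

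The integrin subunit gene ITGA10, a collagen receptor, measured 15.6, 17.9 and 13.5 CPM in wildtype and 1.58, 1.22 and 1.19 CPM in MZrlig1 (−3.55 ± 0.23, adjusted p = 0.00519). The small GTPase gene rhoaa, a RhoA copy that acts on the actin cytoskeleton, fell from 284.2, 351.7 and 309.4 CPM to 182.3, 169.4 and 185.6 CPM (log2 −0.82 ± 0.13, adjusted p = 0.0493). It was not called without the filter on low counts or by limma. The copies rhoab and rhoac were not called, at −0.36 and −0.44. The chemokine gene cxcl12b, whose product guides migrating cells, was named after its values were seen and measured 99.9, 134.6 and 97.8 CPM in wildtype and 40.6, 26.0 and 44.2 CPM in MZrlig1 (−1.58 ± 0.24, adjusted p = 0.0422). The genotypes did not overlap for these 3 genes. Neither the gene named CXCL12 (−0.10) nor the receptor genes CXCR4 (−0.24 and 0.30 in 2 copies) and ACKR3 (−0.37) were called. The pigment cell gene pmela, for a protein of melanosome fibrils, fell from 5.02, 5.55 and 5.06 CPM to 1.31, 1.34 and 0.706 CPM (−2.22 ± 0.31, adjusted p = 0.0343). On the other side, notchl, a Notch-like gene, measured 0.0619, 0.281 and 0 CPM in wildtype and 11.6, 8.20 and 7.55 CPM in MZrlig1 (6.27 ± 0.66, adjusted p = 0.0137).

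Several genes were counted in 1 genotype and had no count in the other. The unnamed gene ENSDARG00000071629 was at 0 in wildtype and at 8.87, 6.92 and 12.4 CPM in MZrlig1, a rise of at least 154-fold (adjusted p = 0.0121). The coronin gene coro2ab, of a family that binds actin, was at 0 in wildtype and at 6.51, 6.22 and 5.81 CPM in MZrlig1, so that it was higher by at least 100.2-fold (adjusted p = 0.0106). A further unnamed gene, ENSDARG00000104640, was at least 86.8-fold higher (adjusted p = 0.0106). Besides RLIG1, the called genes without a count in MZrlig1 were synprb, at least 29.8-fold lower, and si:ch211-202h14.1, at least 42.7-fold lower. Both were named after their values were seen. The largest fall among genes with counts in both genotypes was that of zgc:110216 at 5 CPM or more, from 35.6, 64.1 and 50.4 CPM to 1.31, 2.15 and 0.760 CPM (−5.15 ± 0.42, adjusted p = 0.0106). The unnamed gene ENSDARG00000074844 rose from 1.301, 1.41 and 0.722 CPM to 39.3, 25.6 and 40.2 CPM (4.93 ± 0.33, adjusted p = 0.00519).

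A few groups were described after their values were seen. Of 44 glutamate receptor genes matched, 12 passed the filter on low counts, and 3 were called higher, against 0.454% of all genes: GRIK1 (ENSDARG00000040627), GRIN3B and GRM4. They averaged 0.0647, 0.196 and 0.499 CPM in wildtype and 1.61, 1.88 and 3.63 CPM in MZrlig1. All 3 thus passed the filter through the group in which they were high, and the share called is no support for a change of the group. The 12 genes summed to 12.6, 8.86 and 11.0 CPM in wildtype and to 27.5, 19.4 and 24.6 CPM in MZrlig1. Egg coat genes of the zona pellucida family, which the oocyte expresses, went the other way. Of 19 tested 18 had values below 0, at a median of −0.64, and 1, zp2l1, was called (−2.03 ± 0.31, adjusted p = 0.0430). Over all genes tested 0.36% were called lower. Their summed level was 297, 473.1 and 329.7 CPM in wildtype and 209.3, 297.2 and 230.6 CPM in MZrlig1, so the ranges overlapped, and without wildtype replicate b the median was −0.43. From the genes called lower, 3 that wildtype embryos lose between shield and 1 dpf were picked: the Tudor domain gene tdrd15 from 18.6, 17.8 and 18.4 CPM to 6.44, 5.52 and 5.48 CPM (−1.65 ± 0.16, adjusted p = 0.0121), VRTN (−0.92 ± 0.14, adjusted p = 0.0384) and NOCT, a nocturnin (−1.14 ± 0.17, adjusted p = 0.0377). Over that wildtype course 35 of 54 called-lower genes fell and 12 rose. The tdrd genes did not move as one. Of 10 tested, tdrd15 was the 1 called, and 6 had values above 0, among them tdrd12 (1.41, adjusted p = 0.0741) and TDRD1 (0.69). The gene zgc:112994 measured 323.3, 313.0 and 306.9 CPM and then 175.4, 187.7 and 157.8 CPM (−0.86 ± 0.12, adjusted p = 0.0343). Neither VRTN nor zgc:112994 was called by limma.

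Across 30 lists of tissues and pathways, 6 had a called member and 24 had none by edgeR. Of these 24 lists, 14 also had none by DESeq2. Several lists had medians below 0 that depended on wildtype replicate b. The cytosolic ribosomal protein genes had a median of −0.40, with 0 of 83 values above 0, 0 called by either tool and 0 with an unadjusted p under 0.05. Without that library the median was 0.02, with 46 of 83 above 0. The proteasome genes went from −0.28 to 0.03, the nuclear respiratory chain genes from −0.30 to 0.10, the Nrf2 and oxidative stress genes from −0.23 to 0.11 and the genes of the yolk syncytial layer from −0.18 to 0.12. Without that library 3 genes of the yolk syncytial layer were called higher and 1 lower. On the heat shock and chaperone list 2 were then called higher and 0 lower. The median over all genes tested was 0.01.

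Proliferation and pluripotency lists were among those that kept medians below 0 without wildtype replicate b. So did others, such as endoderm (−0.16, with 3 of 12 above 0), BMP signalling (−0.07) and Nodal, Wnt and FGF signalling (−0.07). The median over all genes in that fit is not given here. Of 48 cell cycle and DNA replication genes 5 had values above 0, at a median of −0.23, and for 14 every MZrlig1 library was below every wildtype library, with none the other way, while 21.5% of all genes did not overlap in either direction. Of these 48 genes 0 were called by edgeR, 7 had an unadjusted p under 0.05 and 1, cdc25d, was called by DESeq2. Without wildtype replicate b the median was −0.12, with 10 above 0. The helicase subunit gene MCM6 with the smaller p measured 26.6 CPM in wildtype and 15.6 CPM in MZrlig1 (−0.77, adjusted p = 0.234), and POLD1, a DNA polymerase subunit, 58.7 and 43.8 CPM (−0.42, adjusted p = 0.192), and POLD1 was called without that library (−0.47, adjusted p = 0.0428). Of 20 pluripotency and genome activation genes 4 had values above 0, at a median of −0.19 and, without that library, −0.06. The factor pou5f3 averaged 171 CPM in wildtype and 122 CPM in MZrlig1 (−0.50, adjusted p = 0.224). It was called without wildtype replicate b (−0.61, adjusted p = 0.0213), as was the DNA methyltransferase gene DNMT3B (−0.77, adjusted p = 0.00620). Of 16 germ cell genes, 0 were called by either tool and 3 had an unadjusted p under 0.05. Among these 3, DDX4, known as vasa, measured 20.0 CPM in wildtype and 12.8 CPM in MZrlig1 (−0.64, edgeR adjusted p = 0.195). TDRD1 went the other way, with 3.07 and 4.95 CPM (0.69, edgeR adjusted p = 0.266). For 4 of the 16 every MZrlig1 library was above every wildtype library, and for 3 every one was below.

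**Figure D3:**
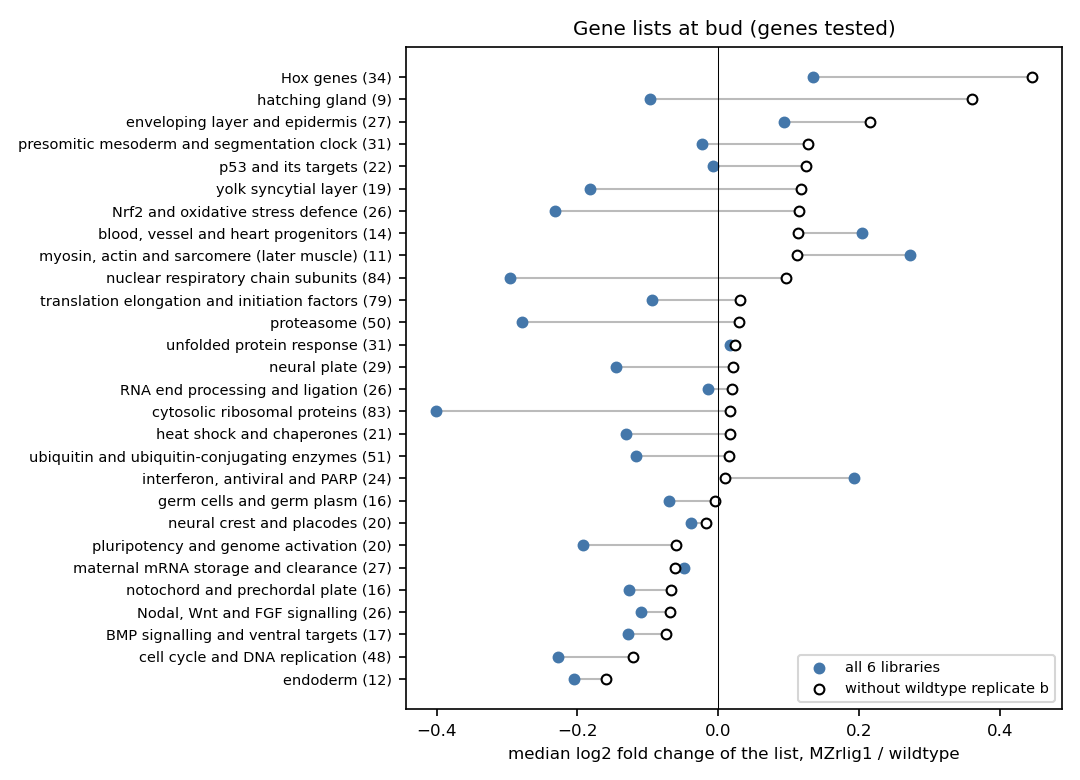
Median log2 fold change of 28 lists of tissues and pathways in MZrlig1 relative to wildtype at bud, with all 6 libraries (filled) and without wildtype replicate b (open). The ribosomal protein, proteasome and respiratory chain medians lay near −0.3 to −0.4 with all libraries and near 0 without that library, while the Hox median lay above 0 in both.

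The genes called at bud were followed at the other stages, each fitted alone on its own libraries. At shield, 108 of them passed the filter. Of these, 97 kept their direction (89.8%), and 54 were also called in it. These 54 made up 41.9% of the bud calls and 9.42% of the 573 genes called at shield, where 3.84% of tested genes were called. At 1 dpf, without MZrlig1 replicate a of that stage, which stood far apart, 95 of 115 had the same direction (82.6%) and 40 were called, which was 31.0% of the bud calls and 20.6% of the 1 dpf calls. There 1.03% of tested genes were called. With that library the share of the same direction was 72.3%. When RLIG1, the targeted gene, was set aside, 96 of 107 genes kept their direction at shield, and 53 were called in it. At 1 dpf, again less replicate a, 94 of 114 did, and 39 were called. The share with the same direction over all genes tested is not given here. At the 4-cell stage (3.16% of tested genes called) 22 of the bud genes were called in the same direction, at sphere (36% called) 47 and at 5 dpf (1.02% called) 36. Sphere had only replicates d and f of wildtype and e and f of MZrlig1. Pools of both genotypes held 10 embryos at 4-cell, sphere and shield, and 8 at bud, 1 dpf and 5 dpf. Genes called in the opposite direction numbered 1 at 4-cell, 6 at sphere, 1 at shield, 0 at 1 dpf and 1 at 5 dpf. Without wildtype bud replicate b, which raised the number of bud calls to 492, the share with the same direction was 81.4% at shield and 72.4% at 1 dpf, and without wildtype replicate c, with 4 bud calls, it was 75% and 100%. Without MZrlig1 replicate b, with 7 bud calls, the share at 1 dpf was 100%.

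**Figure D4:**
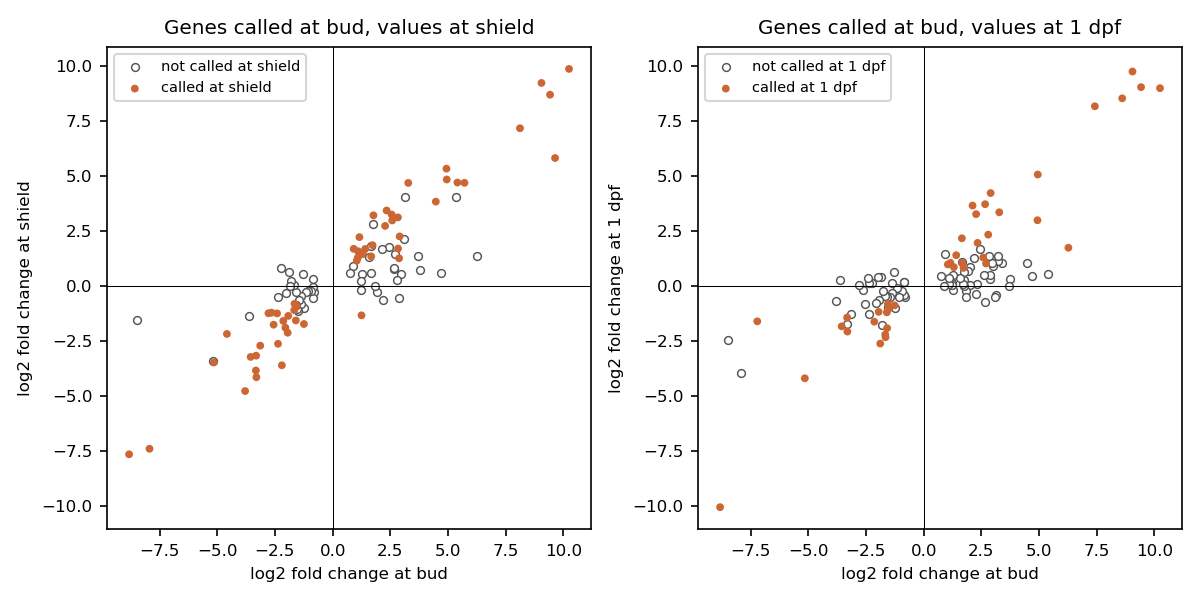
Log2 fold change of the bud-called genes at bud (horizontal axis) and at shield or 1 dpf (vertical axis), MZrlig1 relative to wildtype, with 1 dpf fitted without MZrlig1 replicate a. At shield 97 of 108 genes and at 1 dpf 95 of 115 lay where both values have the same sign.

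Of the 129 genes, 12 were called in the same direction at all 5 other stages, among them RLIG1, ubb, ube2d2, eef2a.1, EIF3J, EHD1, sult2st3 and zgc:194285. EHD1, of endocytic recycling, measured 36.9, 33.8 and 35.9 CPM in wildtype at bud and 87.2, 84.4 and 92.2 CPM in MZrlig1 (1.31 ± 0.12, adjusted p = 0.0106). The gene zgc:194285 fell from 15.6, 18.5 and 19.8 CPM to 1.58, 1.57 and 2.23 CPM (−3.32 ± 0.23, adjusted p = 0.00529). At the other end, 45 genes were called at bud and in the same direction at none of the other 5 stages, 24 higher and 21 lower in MZrlig1. GBX2, EGR2, MAT1A, RGS2, pmela, VRTN, NOCT and zgc:112994 were among them. A gene missing the threshold at another stage does not show that the stages differ, and the difference itself was tested for shield and 1 dpf.

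The genotype effect at bud minus that at shield was called for 76 of 17272 genes (0.44%), 23 higher and 53 lower at bud. Of the 76 genes 9 were also called at bud alone. With the replicate block within stages 40 were called, 31 of them among the 76, and without single libraries between 7 (without MZrlig1 bud replicate a) and 201 (without MZrlig1 shield replicate c). The smallest p belonged to DNMT3B, a de novo DNA methyltransferase. In CPM of the total count, DNMT3B measured 19.2, 24.1 and 22.6 in wildtype and 82.2, 56.0 and 75.6 in MZrlig1 at shield, and 133.8, 77.5 and 114.2 in wildtype and 77.3, 71.9 and 73.0 in MZrlig1 at bud. MZrlig1 was thus above wildtype at shield, without overlap (log2 1.73, edgeR adjusted p = 0.0023). At bud it was below wildtype, a value that edgeR did not call with all 6 libraries (−0.63, adjusted p = 0.148). The difference between the stages was −2.37 ± 0.24 (adjusted p = 0.00327). DCBLD1, a membrane protein gene, had a log2 fold change of 1.73 at shield and −0.13 at bud (difference −1.87 ± 0.20, adjusted p = 0.00327), and cyp2k8 one of 0.60 at shield and 4.69 at bud (difference 4.08 ± 0.48, adjusted p = 0.00781). All 3 were called in each of the 16 settings tried for this difference.

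Neural plate genes stood among those with a difference from shield, a choice made after their values were seen. Of 29 neural plate genes 3 were called, all lower at bud relative to shield and OTX1 and OTX2 among them, against 0.44% of all genes in either direction. OTX2 in MZrlig1 measured 60.3, 34.5 and 27.0 CPM of the total count at shield, against 15.0, 17.2 and 14.1 in wildtype. At bud it measured 152.3, 136.8 and 134.9 in MZrlig1 and 169.1, 164.7 and 172.4 in wildtype. MZrlig1 was thus above wildtype at shield, where the effect was called, and below it at bud, where it was not called. The difference was −1.81 ± 0.35 (adjusted p = 0.0489), and for OTX1 −1.77 ± 0.33 (adjusted p = 0.0474), both close to the threshold. Of 20 genes of the neural crest and placodes 3 were called in the same direction, msx1b and msx3 among them. The caudal gene cdx1a had a value of 0.63 at shield (not called) and −2.62 at 1 dpf (called). Its difference between bud and shield was not called, nor was that between bud and 1 dpf.

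The genotype effect at bud minus that at 1 dpf was called for 41 of 19755 genes (0.208%), 27 higher and 14 lower at bud, and 29 of these were called at bud alone. MAT1A had the smallest p. In CPM of the total count MAT1A measured 153.0, 126.1 and 137.3 in wildtype at 1 dpf and 94.3 and 100.2 in MZrlig1 replicates b and c. This lower value at 1 dpf was not called (−0.50, edgeR adjusted p = 0.128). At bud MZrlig1 was the higher genotype, and that effect was called. The difference between the stages was 2.31 ± 0.22 (adjusted p = 0.00605). The thick filament gene mybpc2b had a log2 fold change of 0.55 at 1 dpf (difference 4.82 ± 0.55, adjusted p = 0.00709). The laminin gene lamb2l had 43 counts over the MZrlig1 libraries at bud and 1 over wildtype, a ratio of 41.3. The exact counting interval was 7.03 to 1669, and it covers counting error only. Its effect at bud alone was not called (log2 4.85, edgeR adjusted p = 0.0505). The log2 fold change of lamb2l at 1 dpf was 0.02 (difference 4.82 ± 0.54, adjusted p = 0.00709). GBX2 and EGR2 were among the 41 genes, with values of 0.02 and −0.38 at 1 dpf and differences of 1.72 ± 0.29 and 2.63 ± 0.44 (adjusted p = 0.0488 and 0.0479). These calls depended on the libraries and the fit used. With the replicate letter as a block within stages 0 genes were called, with 1416 at an unadjusted p under 0.05, and with MZrlig1 1 dpf replicate a 0 were called, with 538. Without MZrlig1 1 dpf replicate b 2 were called, and without c 0.

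The course of the called genes in wildtype alone was read from the shield and 1 dpf libraries, none of which is a bud library. Of all genes tested at bud and in this course, 40.1% rose and 39.7% fell from shield to 1 dpf. Among the genes higher in MZrlig1 at bud, 35 of 57 rose (61.4%) and 14 fell, at a median log2 change of 1.79. Among those lower in MZrlig1 at bud, 12 of 54 rose and 35 fell (64.8%), at a median of −1.13. GBX2 changed by 5.40 on the log2 scale in wildtype from shield to 1 dpf, EGR2 by 3.84, MAT1A by 6.59, mybpc2b by 7.30 and MYOM2 by 5.91. For GBX2, MZrlig1 at bud (53.4, 49.9 and 56.4 CPM of the total count) lay above wildtype at 1 dpf (16.7, 20.9 and 18.1). For MAT1A, mybpc2b and MYOM2 MZrlig1 at bud lay below wildtype at 1 dpf, and for EGR2 the ranges overlapped. Of the genes lower in MZrlig1, cdx1a changed by −3.05, tdrd15 by −6.62, VRTN by −8.27 and zgc:112994 by −10.39. The 14 and 12 genes that went the other way included znf1050 (−7.31), znfl1b (−3.34), notchl (−2.69), urahb (−2.28), znfl1i (−1.71), cyp2k8 (−1.27) and eef2a.1 (−1.13), all higher in MZrlig1 at bud, and pmela (5.98) and ITGA10 (1.18), both lower.

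**Figure D5:**
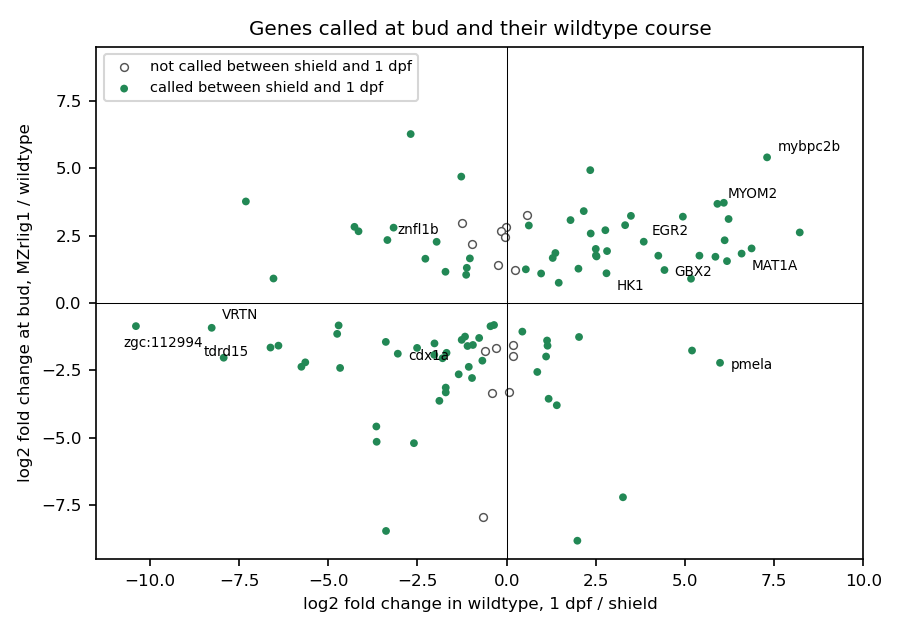
Log2 fold change of the called genes at bud, MZrlig1 relative to wildtype (vertical axis), against their log2 change in wildtype from shield to 1 dpf (horizontal axis). Of the genes higher in MZrlig1 35 of 57 rose over the wildtype course, and of those lower in MZrlig1 35 of 54 fell.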

How the data were processed

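Libraries were made from poly(A)-enriched RNA of embryo pools, per the labels. The authors deposited raw read counts per gene as whole numbers, normalised expression values (a signal whose scaling is not stated), and FPKM. The submitters' processing notes name STAR 2.7.10b, Salmon 0.14.1, DESeq2 1.42.1 and the build GRCz11, without roles, so the counts may be rounded estimates. Neither the annotation nor the strand setting is given in the sources used here, and overlapping, antisense and near-identical genes can share reads. The deposited FPKM were tabulated beside the counts and are not printed, and the deposited normalised signal served in 1 alternative. Gene names are as the tables give them. No sequence is printed.

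The raw counts of the 6 bud libraries were tested with edgeR 4.0.16 (R 4.3.3): TMM scaling, filterByExpr, robust quasi-likelihood fit with genotype as the term, and Benjamini-Hochberg adjustment. Standard errors were derived from each log2 fold change and its F statistic. Differences between stages were contrasts of 12 libraries with shield and of 11 with 1 dpf. The procedure was tested on simulated data. Alternatives were DESeq2 size factors, no filter, the DESeq2 1.42.0 Wald test, the replicate letter as a block, more libraries in the fit and leaving out each library. Added after seeing the data was limma 3.58.1 (trend option) on deposited normalised signal, as log2 of the value plus 1. The labels state no pairing by letter, and the main fit has no block. Deviations from the group means correlated at 0.357, 0.486 and 0.327 for equal letters and between −0.402 and 0.21 for others. Such deviations sum to 0 within a group, so the values are not independent.

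The members and lists were chosen with earlier results of these data known, and the pattern for Hox names was widened after the names were seen. Named genes were RLIG1; of called genes at 5 CPM or more without overlap, 12 genes each with the strongest rise and fall; the 5 with the highest mean CPM in each direction; up to 3 called members of each list, or the 2 with the smallest p; the 3 with the smallest p of each difference between stages; and relatives of these. Others are said to be chosen after their values were seen, as are the bud genes listed by their calls at other stages. A few genes that the rule names are not reported here.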

Additional observations from a re-analysis of the deposited data

Results flagged for a closer look

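Differences between stages in the genotype effect were singled out by the test of the difference itself. Between bud and shield 76 genes differed, with DNMT3B at −2.37, DCBLD1 at −1.87 and cyp2k8 at 4.08 on the log2 scale. Between bud and 1 dpf 41 genes differed, with MAT1A at 2.31, lamb2l at 4.82 and mybpc2b at 4.82. The 3 genes named for shield were called in all 16 settings tried, with adjusted p-values of at most 0.0259, 0.0259 and 0.0380 from edgeR or DESeq2. The 3 named for 1 dpf were called in 12 of 16 settings each, with adjusted p-values up to 0.987. The wildtype and MZrlig1 libraries at bud enter both differences. The cause of these differences was not tested.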

How the results depend on the processing

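The 129 calls at bud became 584 with DESeq2, 264 with the replicate block and 513 in a fit of all stages (less MZrlig1 1 dpf replicate a), and 0 to 492 when single libraries were left out. Counts under the other alternatives were within 1.5 times: 127 with DESeq2 size factors, 163 without a filter and 139 with limma. Of the 129 genes, 98 were called in all 6 alternatives that used every bud library. The 76 differences from shield became 514 with DESeq2 and 40 with the replicate block, and ranged from 7 to 201 without single libraries. The 41 differences from 1 dpf became 228 with DESeq2, 0 with the block and 0 with MZrlig1 1 dpf replicate a, and ranged from 0 to 122. The share of bud calls with the same direction at shield was 81.1% with the block and 80.3% in the fit of all stages, and 75% to 94.2% without single libraries. At 1 dpf it was 72.3% with MZrlig1 replicate a and 72.4% to 100% without single libraries. Reversed values, all of genes not called, were those of MYL1, which ranged from −1.71 to 2.09 without single libraries (lowest without MZrlig1 replicate b), TNNC2 at −0.23 with the block, −0.26 with limma, −0.19 without wildtype replicate c and from −2.22 to 1.68 without single libraries, and DCBLD1 at 0.03 with limma. The cause was not tested. Of 330 list medians under other settings 51 moved by more than the spread, and of 1066 values of named genes 870 kept their direction and side of the threshold. Genes under 5 CPM rest on few counts.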

Other observations

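Gene order in the RefSeq annotation of another assembly (GRCz12tu) placed 84 of the 129 called genes and 11625 of those tested. Within 5 genes of each other lay 3 pairs of called genes, si:rp71-77l1.1 with sult2st3, si:dkey-20i20.14 with zgc:194221 and znf1173 with zgc:194221. Both members of each pair had the same direction. The pairs that hold zgc:194221 share that gene and are not independent. How many such pairs other sets of placed genes would give is not given here. Within 50 genes on each side of rlig1, 0 of 54 tested genes were called, and within 100 genes 1 of 103, COQ9.

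The genes below were chosen after their values were seen. Both genes named DEF6 were called, in opposite directions, 1 at 2.90 and the other at −1.85 on the log2 scale. The oxidase gene duox fell from 31.8, 20.7 and 28.6 CPM to 5.98, 8.49 and 6.89 CPM (−1.92 ± 0.23, edgeR adjusted p = 0.0217), and DUOXA1, the gene of its maturation factor, was at −2.50 (adjusted p = 0.0553). TNFRSF19 was called in opposite directions at bud (1.25) and at shield (−1.34), a difference of 2.57 (adjusted p = 0.00957).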
